A study of Canis lupus familiaris with 33 samples.

Results

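Archived brain tumours of dogs were set against archived control brain, gene by gene, with the spread among the individual tumours as the main interest. The comparison took every formalin-fixed, paraffin-embedded (FFPE) library of the study, 11 from oligodendroglioma and 10 from brain labelled healthy, together 21 of the 33 libraries in the series. The tumours were 9 of grade III and 2 of grade II (dogs 51234 and 60679), from 4 Boxers, 6 French Bulldogs and 1 dog labelled Pomerian. The controls came from 4 Boxers, 5 French Bulldogs and 1 dog labelled Bolonka Swetna. Stated ages ran from 4.7 to 12 years in 9 of the tumour dogs and from 2 to 8 years in 5 of the control dogs on the FFPE labels. Tumour dog 60461 has no age there but is given 8.8 years on its fresh-frozen label. All tissue was taken at necropsy, 1 to 18 hours after death, and fixed in 10% formalin. Each dog gave 1 FFPE library, and 5 of the tumour dogs and 3 of the control dogs also gave a fresh-frozen library. The labels give neither the brain region of the controls nor the share of tumour cells in a block.

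Oligodendroglioma is a glial tumour named for its likeness to oligodendrocytes, the cells that wrap axons in myelin, and in dogs it is known mainly from short-nosed breeds such as the Boxer and the French Bulldog. It grows into brain tissue, so a block can hold neurons, astrocytes, blood vessels and immune cells beside the tumour cells. Formalin cross-links RNA and breaks it over the years of storage. Gains and losses of whole chromosomes are known in gliomas of dogs. The files hold RNA counts only, and DNA copies were not analysed here. Because whole tissue was sequenced, fewer cells of a type and less RNA per cell cannot be told apart in any result given here.

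The deposited table names genes by Ensembl identifier only, and 0 of its 30951 identifiers could be paired with a gene name. Genes were therefore described by position, structure, level and behaviour in each tumour, and the cell type named on the labels could not be checked against its markers. Total counts ran from 1752162 to 12501029 in tumours (median 4855197) and from 406406 to 32584840 in controls (median 3381605.5). No general measure of the libraries passed a test of tumours against controls (two-sided permutation, adjusted p = 0.935 to 0.949 over 6 measures). The mitochondrial genome took 9.61% to 34.6% of the counts in tumours (median 24.2%) and 13.9% to 40.3% in controls (median 18.0%). At the depth of the shallowest library, 14134 ± 434 genes were detected in tumours and 14715 ± 2137 in controls (SD, n = 11 and 10).

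Several control libraries stood apart and touch the results given here. Control 50315 had the lowest total, 406406 counts. Control 60462 had 40.3% of its counts in the mitochondrial genome, and at equal depth it showed 20499 genes where the other controls showed at most 15000. Control 60126 was the deepest library, with 32584840 counts. Control 61478 lay nearest to the tumours among the genes that were higher in tumours. No library was left out of the main comparison. Without them in turn, edgeR called 2933 genes (without 50315), 2643 (without 60126), 3254 (without 60462) and 3138 (without 61478), against 2819 with all libraries.

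Of 13338 genes tested with edgeR, 2819 (21.1%) differed between FFPE tumours and FFPE controls at an adjusted p under 0.05. Of all tested genes, 1342 (10.1%) were higher and 1477 (11.1%) lower in tumours. The median log2 fold change was 1.15 among the higher genes, with an upper quartile of 1.55 and a highest value of 4.28. Among the lower genes the median was -1.34, the lower quartile -1.76 and the lowest value -6.13. Over all tested genes the median was 0.02. The median loss was thus somewhat larger than the median gain, over a similar number of genes. Leaving out 1 library at a time gave between 2139 genes (without control 47198) and 3385 (without tumour 44331). With age as a covariate edgeR called 103 genes in the 14 dogs with an age on the FFPE label, and 141 in 15 dogs when the age of dog 60461 was added after the data were seen. The count was 1 among the 8 dogs that also gave a fresh-frozen library, where 2489 genes had an unadjusted p under 0.05.

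In few of the called genes did every tumour lie beyond every control. Among the higher genes, 17 had all 11 tumours above all 10 controls, and among the lower genes 37 had all 11 below. These genes made up 0.127% and 0.277% of all tested genes, and 1.27% and 2.51% of the genes called in the same direction. At least 8 tumours lay above every control in 354 higher genes and below every control in 360 lower genes, which were 26.4% and 24.4% of those lists, against 2.76% and 2.93% of all tested genes that met the same count, called or not. The calls came from the same libraries, so the difference between those shares is a description. In most called genes between 3 and 7 tumours lay beyond the controls, which held for 862 higher genes (64.2%) and 774 lower genes (52.4%). At the other end, 126 higher genes (9.39%) and 343 lower genes (23.2%) had at most 2 tumours beyond every control. Of all tested genes, 6768 had 0 tumours above every control, 868 had 3 and 247 had 7. Those called higher among them numbered 4, 123 and 206. Likewise 8260 tested genes had 0 tumours below every control, 640 had 3 and 275 had 7, of which 129, 136 and 191 were called lower.

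**Figure D1:**
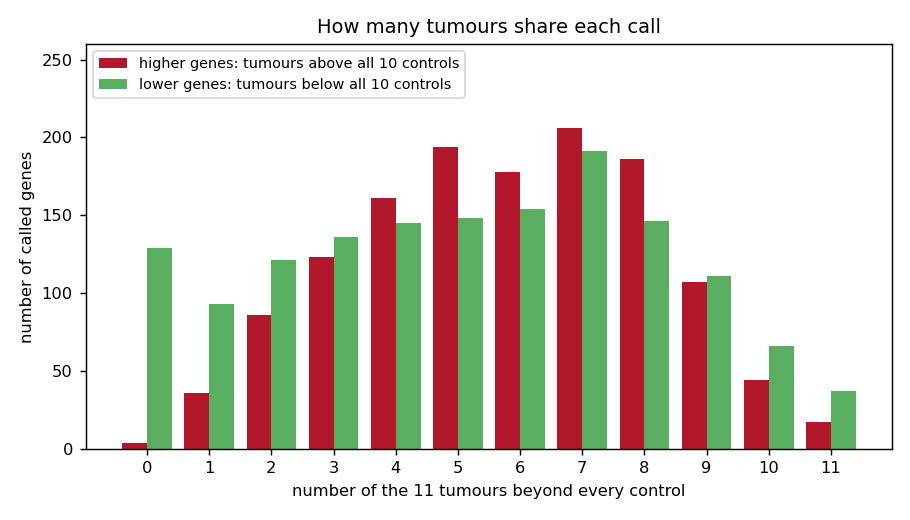
Number of called genes (vertical axis) by how many of the 11 FFPE tumours lay beyond all 10 FFPE controls (horizontal axis); red bars count higher genes with tumours above the controls and green bars lower genes with tumours below them. Both distributions are broad, with 206 higher and 191 lower genes at 7 tumours, 17 and 37 at all 11, and 4 and 129 at none. Over all tested genes, not drawn, 247 had 7 tumours above every control and 275 had 7 below, and 6768 and 8260 had none.

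The control range that these counts use was set largely by particular dogs. Control 61478 was the highest control in 540 of the 1342 higher genes (40.2%), and in 10.3% of all tested genes. Control 60462 was the lowest control in 569 of the 1477 lower genes (38.5%), and in 18.9% of all tested genes. Without control 61478 in the range, all 11 tumours lay above the other controls in 72 higher genes and below them in 47 lower genes. Without control 60462 those counts were 24 and 88, and without the shallowest control, 50315, they were 20 and 46. Without any of the other controls in turn they were 17 to 18 and 37 to 53. Dropping a control from the range can only keep or raise these counts. The number of genes in which every tumour stood clear of control brain rose most without controls 61478 and 60462. Leaving single controls out of the range was chosen after the data were seen.

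The 17 higher genes without overlap lay on 16 chromosomes, had log2 fold changes of 0.58 to 3.58 (median 1.63) and average levels of 2.71 to 10.9 log2 CPM (counts scaled to the library total). Their median SD was 0.49 log2 units among tumours and 0.63 among controls. The 37 lower genes without overlap lay on 22 chromosomes, with at most 3 on any chromosome, and had log2 fold changes of -3.63 to -1.16 (median -2.13). Among them the tumours were the more variable group, with a median SD of 1.40 log2 units in tumours and 0.48 in controls. Over all genes called lower the median SD was 0.95 in tumours and 0.73 in controls. Both sets were picked for a lack of overlap in these same libraries, a rule that favours genes with little spread among controls. Their SDs are therefore a description. Whether low counts widened the SD in tumours was not tested. The 2 with the largest change in each direction, at an average level of at least 2 log2 CPM, are described individually. The files give them no name, and no role is given to them here.

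ENSCAFG00000017051 lies on the plus strand of chromosome 30 at 28650948 to 28653799 (CanFam3.1), with 579 exonic bases in 8 exonic blocks. Its level ran from 3.37 log2 CPM (dog 60127) over a median of 5.04 to 6.73 (dog 60749) in tumours, and from -1.61 (dog 50315, where it had 0 counts) over 1.06 to 3.20 (dog 61478) in controls. The lowest tumour and the highest control were close, at 3.37 and 3.20, while the medians lay far apart. The log2 fold change was 3.58 ± 0.49 (SE; edgeR adjusted p = 0.000362), and 4.03 without control 61478, with group means of 4.75 ± 1.00 in tumours and 1.04 ± 1.34 in controls (SD, n = 11 and 10). In Boxers the mean was 4.93 in 4 tumours and 0.71 in 4 controls, and in French Bulldogs 4.86 in 6 tumours and 1.34 in 5 controls.

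ENSCAFG00000003510, on the plus strand of chromosome 14 at 59827650 to 59943315, has 6008 exonic bases in 33 exonic blocks. Tumours ran from 10.4 log2 CPM (dog 44331) over a median of 11.7 to 12.4 (dog 50416), and controls from 8.04 (dog 50276) over 8.42 to 10.3 (dog 61478). Here too the least changed tumour and control 61478 nearly met, and that control lay 1.11 log2 units above the next. The log2 fold change was 2.84 ± 0.34 (SE; edgeR adjusted p = 0.000122), and it was 3.17 without control 61478. Both grades carried the high level, with a mean of 12.0 log2 CPM in the 2 grade II tumours and 11.4 in the 9 grade III tumours.

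Of the lower genes, ENSCAFG00000016913 lies on the plus strand of chromosome 8 at 47455340 to 47473684, with 2906 exonic bases in 5 exonic blocks. Tumours ran from -0.54 log2 CPM (dog 50416) over 0.61 to 1.85 (dog 44331), and controls from 2.35 (dog 60126) over 3.82 to 6.16 (dog 50315). The gene was thinly covered, with 1 to 27 counts per tumour library and 14 to 188 per control library. Its log2 fold change was -3.63 ± 0.48 (SE; edgeR adjusted p = 0.000279). ENSCAFG00000012243, on the plus strand of chromosome 26 at 22726526 to 22735125, has 4103 exonic bases in 4 exonic blocks. Its tumours spread widely, from 2.81 log2 CPM (dog 51234) over 5.28 to 7.05 (dog 60461), while controls ran from 7.49 (dog 43323) over 8.37 to 9.98 (dog 45726). The log2 fold change was -3.56 ± 0.48 (SE; edgeR adjusted p = 0.000362). None of the 4 genes overlaps another annotated gene, and each kept an adjusted p of at most 0.00117 with edgeR when any library was left out. After thinning to the shallowest library, ENSCAFG00000017051 and ENSCAFG00000016913 fell below the filter on low counts and were not tested. ENSCAFG00000003510 and ENSCAFG00000012243 had log2 fold changes of 2.88 and -3.42 there (edgeR adjusted p = 3.6e-05 and 0.000296).

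The fresh-frozen tumours were 5 of grade III and 1 of grade II, from 3 French Bulldogs, 1 Boxer, 1 Pomerian and 1 Border Terrier, aged 4.7 to 10 years where stated (5 dogs). The fresh-frozen controls were 2 French Bulldogs and 1 each of Bolonka Swetna, Hovawart, Mongrel and Berner sennenhund, aged 2.8 to 10.2 years where stated (5 dogs). In this tissue (6 tumours and 6 controls) the 4 genes passed in the same direction. The log2 fold change of ENSCAFG00000017051 was 4.33 ± 0.49 there and that of ENSCAFG00000003510 was 2.53 ± 0.35 (SE; edgeR adjusted p = 0.000623 and 0.000939). ENSCAFG00000016913 had -3.68 ± 0.72 and ENSCAFG00000012243 had -3.47 ± 0.55 (SE; edgeR adjusted p = 0.00412 and 0.00158). The fresh-frozen groups overlapped only for ENSCAFG00000016913, whose highest tumour was at 0.45 log2 CPM and lowest control at 0.12. Of those libraries, 5 tumours and 3 controls came from dogs that also gave FFPE libraries, so these values are only in part from other animals.

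**Figure D2:**
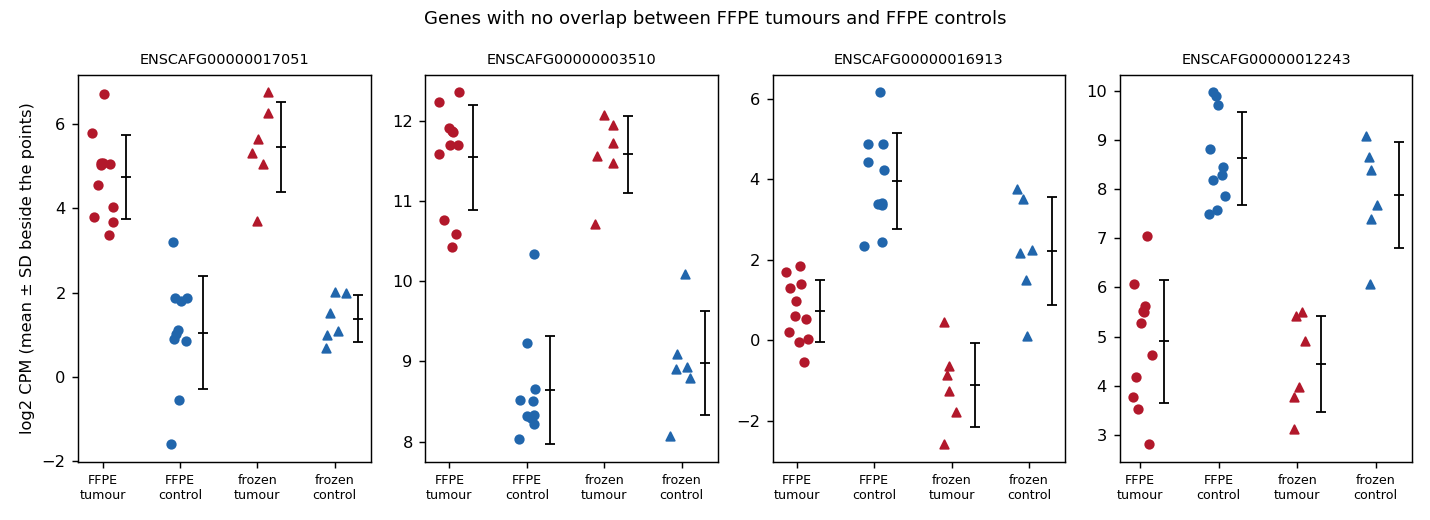
Level of 4 genes in log2 CPM (vertical axes) in each library, by group (horizontal axis: FFPE tumour, FFPE control, frozen tumour, frozen control); red marks tumours, blue controls, circles FFPE and triangles fresh-frozen libraries, and the bars show the mean ± SD (n = 11, 10, 6 and 6). In each panel the FFPE tumours lie wholly above or wholly below the FFPE controls, with a narrow gap for the genes on chromosomes 30 and 14, where control 61478 is the highest control.

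The fresh-frozen dogs without an FFPE library gave a view of the whole lists in animals that had no part in the calls. They were 1 grade III tumour, of a Border Terrier, and 3 controls, a Hovawart, a Mongrel and a Berner sennenhund, so no test was made, and breed and tumour cannot be told apart there. Of the 1341 higher genes found in both tables, 1321 (98.5%) lay above the mean of the 3 controls in that tumour, 1282 (95.6%) lay above all 3, and the median difference was 1.64 log2 units. Of the 1466 lower genes, 1397 (95.3%) lay below the control mean, 1330 (90.7%) below all 3, and the median difference was -2.20. Over the 13044 genes tested in FFPE tissue and found there, 56.7% lay above the control mean, 47.3% above all 3 and 34.9% below all 3, with a median of 0.20. The direction seen in the archived tissue thus recurred in most called genes of that fresh-frozen tumour.

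The tumours differed widely in how far they departed from control brain. For each library, genes were called with that library left out, and its mean deviation from the controls was taken over the higher and over the lower genes (for a control, from the other controls). The deviation over higher genes minus that over lower genes is called its tumour score here, in log2 units. Dog 60749 had the highest score, 4.62, from a mean of 1.84 over higher genes and -2.77 over lower genes. The tumour lay above every control in 77.3% of its higher genes and below every control in 76.6% of its lower genes. Dog 51234, of grade II, followed with 4.10 (1.63 and -2.47), and dog 50416 with 3.73 (1.23 and -2.50).

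Between these and the weakest tumours lay a graded middle. The score was 3.24 in dog 60636, 2.77 in dog 60177, 2.34 in dog 43917, 2.17 in dog 60792, 1.94 in dog 60679 (the other grade II tumour) and 1.92 in dog 60461. In dog 60461 the higher genes carried most of it, with 44.3% above every control and 20.5% below. Dog 60127 had a score of 1.30 (0.60 and -0.70). Dog 44331 had the lowest, 0.76 (0.44 and -0.32), and lay below every control in 13.8% of its lower genes, with a similar share above every control among its higher genes. Both grade II tumours fell inside the range of the 9 grade III tumours, which was 0.76 to 4.62 with a median of 2.34. The order of the 11 tumours was the same with another scaling (RLE size factors) and after thinning to equal depth, where the scores ran from 0.69 to 3.84.

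Not every control lay below every tumour on this scale. Control 61478 had a score of 1.44, almost all of it from higher genes, at 1.11, with -0.33 over lower genes. Control 60462 also had 1.44, but with 0.52 over higher genes and -0.92 over lower genes. Both exceeded the scores of tumours 60127 and 44331. The other controls ran from -0.42 to 0.47, and the medians were 2.34 in tumours and 0.22 in controls. In 47.8% of the higher genes control 61478 lay above all other controls.

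**Figure D3:**
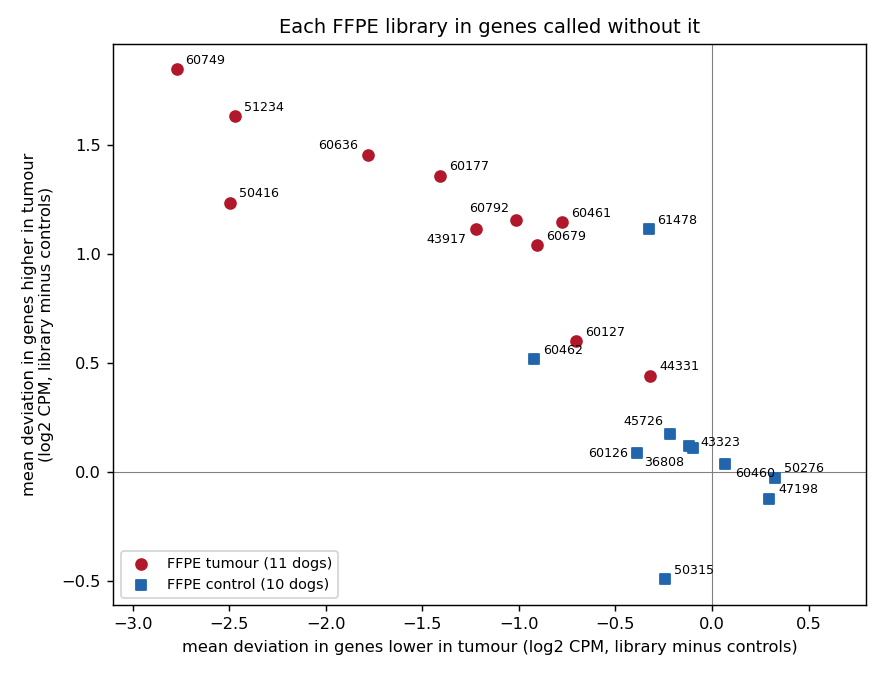
Mean deviation from controls in log2 CPM over genes lower in tumour (horizontal axis) and higher in tumour (vertical axis), with 1 point per library and genes called without that library; red circles are the 11 FFPE tumours and blue squares the 10 FFPE controls, labelled by dog. The tumours spread from dog 60749 at the upper left (-2.77 and 1.84) to dog 44331 near the controls (-0.32 and 0.44), and controls 61478 and 60462 lie among the weaker tumours.

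The extremes of the called genes came from few tumours. Dog 60749 was the highest tumour in 29.4% of the higher genes and the lowest in 33.5% of the lower genes, against 13.7% and 12.9% of all tested genes. Dog 50416 was the highest in 26.5% and the lowest in 28.3%, against 17.9% and 17.5% of all tested genes. At the weak end, dog 44331 was the lowest tumour in 36.4% of the higher genes and the highest in 32.4% of the lower genes, against 10.4% and 11.1% of all tested genes. Dog 60127 came next, at 21.5% and 22.3%, against 14.1% and 12.4% of all tested genes. These genes were called with every tumour in the fit, so each tumour's values helped to pick them. The shares are therefore a description. Calls in these archived tumours thus describe an average over tumours of very unequal departure.

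The tumour score was compared with 5 measures of the tumour libraries, and no relation passed the adjusted test. Pearson's r was -0.12 with log10 total counts (n = 11; permutation p = 0.732, adjusted p = 0.732), -0.44 with the mitochondrial share (p = 0.179, adjusted p = 0.298) and -0.46 with the share of the 50 most abundant genes (p = 0.158, adjusted p = 0.298). The share of counts in short single-exon features gave r = 0.46 and a Spearman rho of 0.61 (n = 11; permutation p = 0.159 and 0.0540, adjusted p = 0.298 and 0.270). Without the 2 tumours farthest from the median share this r was 0.76. Stated age gave r = -0.38 in 9 dogs (permutation p = 0.306, adjusted p = 0.382). Spearman's rho was -0.32 for depth, -0.45 for the mitochondrial share, -0.38 for the most abundant genes and -0.32 for age (permutation adjusted p = 0.411 for all 4). Without the 2 farthest tumours r was 0.05 for depth, -0.02 for the mitochondrial share, -0.43 for the most abundant genes and -0.33 for age. At 11 tumours, relations of moderate size could be missed.

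Tumours were more variable than controls in the genes called lower. Among the lower genes the median SD was 0.95 log2 units in tumours and 0.73 in controls, and the SD was larger in tumours in 62.5% of them. Among the higher genes it was 0.70 in tumours and 0.75 in controls, and over all tested genes 0.69 in tumours and 0.77 in controls. The order in the higher genes and over all genes depended on the shallowest control. Without dog 50315 the control SD was 0.63 in the higher genes and 0.64 over all genes, below that of the tumours. Without that control the SD was larger in tumours in 70.8% of the lower genes and 61.2% of the higher genes, against 55.9% of all tested genes. Whether lower counts widened the SD of the lower genes in tumours was not tested. The tumours spanned at least 4 log2 units, from lowest to highest, in 1816 tested genes, of which 130 were called higher and 409 lower. These calls made up 7.16% and 22.5% of the widely varying genes, against 10.1% and 11.1% of all tested genes. In the other widely varying genes the tumours differed among themselves without passing the test against controls.

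The structure and level of the genes gave the lists different shapes. Genes of large genomic span, many of which in mammals code for synaptic and adhesion proteins, leaned to the lower side. Of 528 tested genes spanning at least 300 kb, 55 (10.4%) were higher and 100 (18.9%) lower, and the median log2 fold change was -0.22. The median deviation of these genes from the controls ran from -0.80 to 0.37 over the tumours and from -0.65 to 0.41 over the controls, so the groups overlapped. Of 415 genes averaging at least 8 log2 CPM, 48 (11.6%) were higher and 120 (28.9%) lower, and the middle value of their log2 fold changes was -0.33. Among the 628 genes averaging under 2 log2 CPM, 19 (3.03%) were higher and 40 (6.37%) lower, against 10.1% and 11.1% of all tested genes. Calls in both directions were fewer at low levels, where low counts limit what the test can detect. Genes with more than 20 exonic blocks were higher in 276 of 2275 cases (12.1%) and lower in 250, close to the shares over all tested genes.

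**Figure D4:**
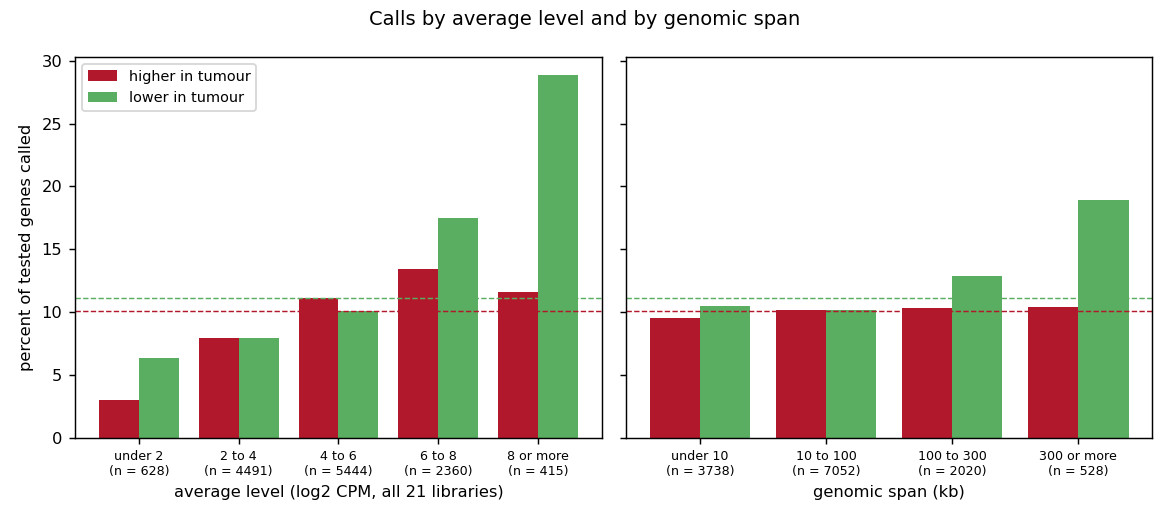
Percent of tested genes called higher (red) or lower (green) in FFPE tumours (vertical axis), by average level in log2 CPM over the 21 libraries (left) and by genomic span in kb (right), with the number of genes in each class; dashed lines mark 10.1% and 11.1%, the shares over all tested genes. The lower share reaches 28.9% in the most abundant genes and 18.9% in the longest genes, while the higher share stays near 10% across spans.

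Features of the mitochondrial genome, which codes for subunits of the respiratory chain and for the RNAs that translate them, showed the widest spread among tumours of the gene classes described. Of the 36 tested, 20 (55.6%) were lower and 0 higher, against 11.1% and 10.1% of all tested genes. The median deviation of these features from the controls ran from -3.75 to 0.03 over the 11 tumours (median -1.14) and from -0.71 to 1.45 over the 10 controls (median -0.38). That deviation weighs each feature alike, whatever its counts. The share of all counts in the mitochondrial genome had the higher median in tumours, 24.2% against 18.0% in controls. This share did not pass the test between the groups, as given with the library measures. Short single-exon features outside it, many of which are small RNA genes, were higher in 29 of 407 cases (7.13%) and lower in 15 (3.69%), below the shares over all tested genes on both sides. Left without mitochondrial genes, the comparison gave 1563 higher and 1286 lower genes, against 1342 and 1477 with them, so the larger side changed.

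Along the genome the strongest common shifts lay on chromosomes 13 and 35. A library's deviation on a chromosome was the middle value, among tested genes there, of the difference from the controls, once each library had been centred on its own median gene. Chromosome 13 had 70 higher genes (26.9%) and 20 lower genes (7.69%) among 260 tested, and the shift of tumours against controls was 0.46 log2 units (two-sided permutation, adjusted p = 0.0177 over 39 chromosomes). The deviation was 1.03 in dog 60749, 0.92 in dog 50416, 0.71 in dogs 60792 and 60636, 0.58 in dog 51234, 0.46 in dog 60461 and 0.45 in dog 43917. It was 0.39 in dog 60177, 0.14 in dog 60679, 0.13 in dog 60127 and -0.13 in dog 44331. Controls ran from -0.16 to 0.44, so 7 tumours lay above every control. The upper end of the controls was dog 61478 at 0.44, and the next control was at 0.08, which 10 of the 11 tumours exceeded.

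Chromosome 35 had 41 higher genes (30.6%) and 10 lower genes (7.46%) among 134 tested, with a shift of 0.50 (two-sided permutation, adjusted p = 0.0177). Dog 51234 stood highest at 1.21, followed by dog 60749 at 0.96, dog 50416 at 0.61, dog 60792 at 0.51 and dog 60679 at 0.49. Dogs 43917 and 60461 were at 0.40 and dog 60636 at 0.39, just above the highest control, again dog 61478, at 0.34. Dog 60127 was at 0.26, dog 60177 at 0.02 and dog 44331 at -0.03. The tumours above every control on both chromosomes were thus 43917, 50416, 51234, 60461, 60636, 60749 and 60792. Dog 60679 lay above every control on chromosome 35 alone of the pair, and dogs 60177, 60127 and 44331 on neither. With any library left out, both shifts stayed past the threshold, at 0.41 to 0.54 for chromosome 13 and 0.42 to 0.54 for chromosome 35 (highest permutation adjusted p = 0.0383). Without a filter on low counts the shifts were 0.05 and 0.11 and did not pass (permutation adjusted p = 0.586 and 0.238). That setting takes in genes too low for the main filter, so its medians cover another set of genes. With at least 10 counts in at least 10 libraries the shifts were 0.45 and 0.50 and passed (permutation adjusted p = 0.0174 for both). Without the 2 grade II tumours chromosome 35 was at 0.40 and did not pass (exact permutation, adjusted p = 0.0524). In the 6 tumours and 7 controls with FFPE tissue only, the shifts were 0.47 and 0.51 and did not pass (exact permutation, adjusted p = 0.121 for both).

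Smaller shifts passed for chromosome 27, at -0.11 (two-sided permutation, adjusted p = 0.0177), and chromosome 21, at 0.16 (adjusted p = 0.0443). On chromosome 27 tumours ran from -0.20 to 0.01 and controls from -0.10 to 0.25, with 5 tumours below every control. Control 50315 set the upper end, and without it the shift was -0.11 (exact permutation, adjusted p = 0.0383). On chromosome 21 tumours ran from -0.02 to 0.50 and controls from -0.10 to 0.22. There 3 tumours lay above every control, and 8 lay above every control other than dog 60462. The call of chromosome 21 was lost in 9 of the 21 cases with 1 library left out, those without tumour 60127 or without any control other than 61478 and 60462, at shifts of 0.15 to 0.17 (highest permutation adjusted p = 0.0730). The call of chromosome 27 was kept in all 21 (-0.13 to -0.10, highest permutation adjusted p = 0.0422). Without a filter on low counts neither passed, at -0.05 for chromosome 21 and -0.03 for chromosome 27 (permutation adjusted p = 0.949 and 0.565). With at least 10 counts in at least 10 libraries both passed, at 0.17 and -0.11 (permutation adjusted p = 0.0254 and 0.0174). Chromosome 17 was raised in 4 tumours beyond every control, up to 0.58 in dog 51234, but its shift of 0.16 did not pass (permutation adjusted p = 0.0977).

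Other chromosomes varied strongly among tumours. Chromosome 20 ran from -0.51 in dog 60127 to 0.91 in dog 60749, with controls between -0.49 and 0.32. Chromosome 22 ran from -0.76 in dog 60792 to 0.42 in dog 60127, with 4 tumours below and 2 above every control. Chromosome 14 was at -0.75 in dog 60749 and at 0.73 in dog 50416, beyond the controls on opposite sides. Controls varied on chromosomes 14, 20 and 22 as well. Control 60462 was at 0.27, -0.49 and 0.26 there, with the same signs as tumours 60127 and 50416. Control 45726 was at -0.29, 0.20 and -0.29, with the same signs as tumours 60749, 60792 and 60177. These chromosomes thus moved together in libraries of both groups, and what that pattern reflects was not tested. Chromosome 38 reached 0.65 in dog 50416 and 0.64 in dog 60177, and chromosome 11 reached 0.77 in dog 50416 alone beyond the controls. Chromosome 1 was at -0.77 in dog 50416, where no other tumour lay below every control. None of these passed a test of tumours against controls (permutation adjusted p = 0.182 to 0.584 for chromosomes 1, 11, 14, 20, 22 and 38).

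**Figure D5:**
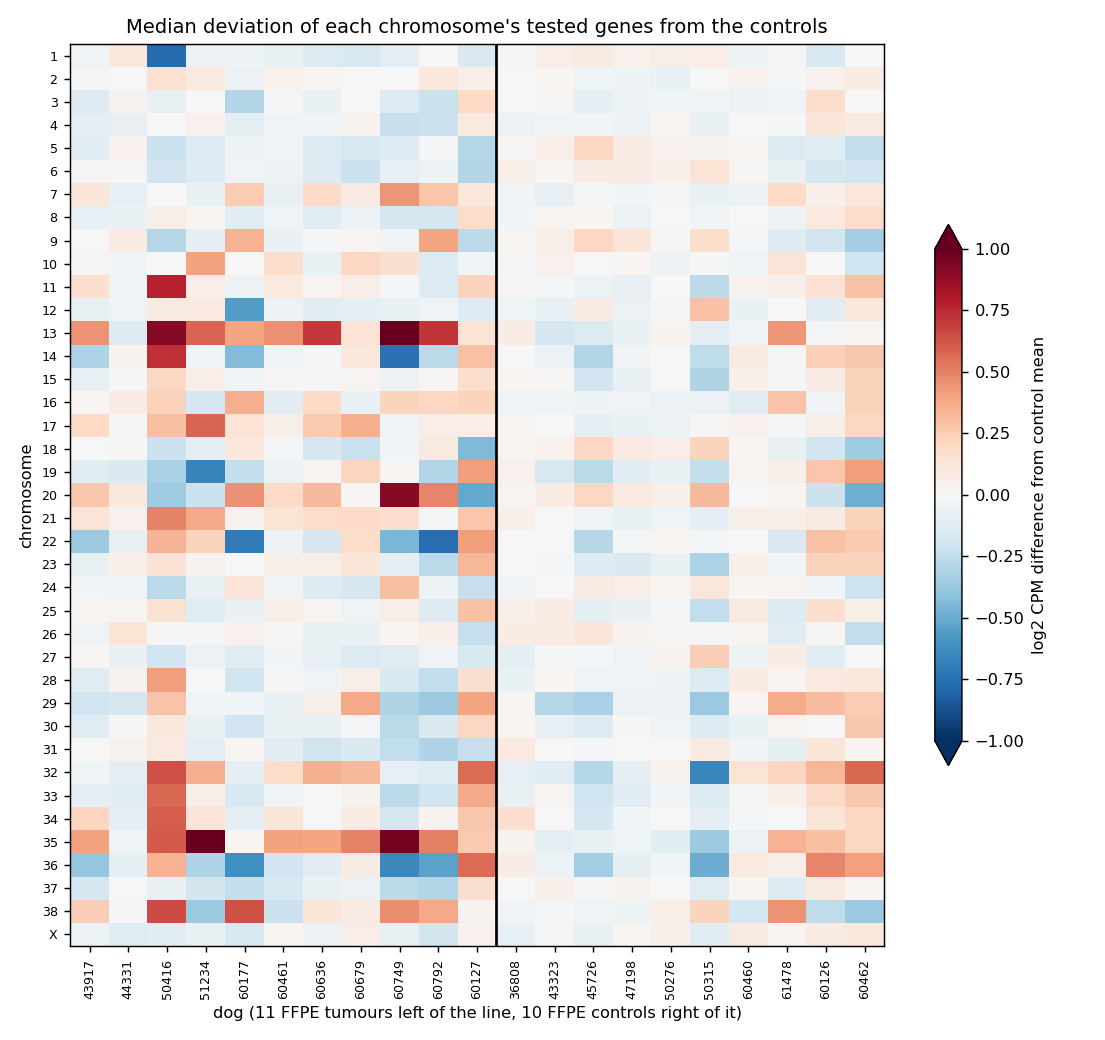
Median deviation of the tested genes of each chromosome (rows) from the FFPE controls in log2 CPM (colour, red higher and blue lower) for each dog (columns), with 11 FFPE tumours left of the line and 10 FFPE controls right of it. Chromosomes 13 and 35 are red in most tumours, up to 1.03 and 1.21, dog 44331 is pale throughout, and tumour 60127 is blue on chromosome 20 and red on chromosome 36, as are controls 60126 and 60462.

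Counted per tumour, dog 50416 had 13 chromosomes above and 4 below every control, and dog 60127 had 13 above and 8 below. Dogs 60177, 60749 and 60792 had 12 below each, with 6, 7 and 6 above. Dog 44331 had 2 above and 4 below. The SD over the 39 chromosomes was 0.37 in dogs 50416 and 60749 and 0.07 in dog 44331, and it ran from 0.04 to 0.24 in controls. Tumour 60127 moved with some controls on several chromosomes. On chromosome 20 it was at -0.51, control 60462 at -0.49 and control 60126 at -0.21. On chromosome 36 it was at 0.56, control 60462 at 0.41 and control 60126 at 0.49.

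At a finer scale, 644 consecutive windows of 20 tested genes were described with the same deviation. In 7 windows at least 8 tumours lay above every control, and in 3 at least 8 lay below. A single window held at least 10 higher genes, on chromosome 35 at 24145768 to 25446111 (CanFam3.1), with 11 of its 20 genes higher and 1 lower. Of all tested genes, 10.1% were higher and 11.1% lower. Its deviation ran from -0.19 in dog 44331 over a median of 0.95 to 1.95 in dog 60749 among tumours, against a highest control of 0.73. On chromosome 13, the windows at 18587129 to 22494520 and 22543543 to 29336623 each held 9 higher genes. In the window at 18587129 tumours ran from -0.09 in dog 44331 over a median of 0.89 and the highest control was at 0.83, so 6 tumours lay above every control there.

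The windows named next, with 8 or 9 tumours beyond every control, were not those with most called genes. On chromosome 21, 9 tumours lay above every control at 25981254 to 29719033, with a median of 0.45 in tumours and 0.06 in controls. Of the 20 genes there, 2 were called higher and 1 lower. Lower windows with 9 tumours below every control lay on chromosome 1 at 83243848 to 88994750, with 5 genes lower and 0 higher and a median of -0.35 in tumours and 0.06 in controls, and on chromosome 5 at 77756407 to 80913019, with 2 lower and 0 higher. A window on chromosome 33 at 13808738 to 18037767 had 8 tumours below and 1, dog 60127, above every control. The calls in the windows on chromosomes 21 and 5 did not exceed the shares over all tested genes, 10.1% higher and 11.1% lower. Windows were not tested, those named were picked as extremes of the 644, and 9 held no called gene.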

How the data were processed

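The values were raw whole-number counts of fragments per gene, deposited by the authors without normalisation and made with featureCounts 1.6.0 on Ensembl release 100 models of CanFam3.1 (forward strand, mapping quality of at least 10), per the file headers. Per the labels' protocols, the kit tags molecules with identifiers of 12 nt; their use in counting is not stated, so counts can include amplified copies. The submitters' processing notes also name fastp and STAR. Of 30951 genes, 1229 had 0 counts in the 21 libraries, and 0 entries named no gene.

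Libraries were grouped by their labels. In R 4.3.3, edgeR 4.0.16 (filterByExpr, TMM, robust quasi-likelihood F tests, Benjamini-Hochberg at 0.05) compared 11 with 10 libraries. P-values measure the spread between dogs, since each library is another dog and counted as 1 replicate. Pairs of libraries within a group differed beyond counting noise (chi-square per degree of freedom at least 26.0 in tumours and 17.2 in controls). For log2 CPM a prior count of 2 was added. Permutation tests were two-sided, with 100000 resamples, or exact where a group had under 10 libraries. Chromosome tests used deviations from the midpoint of both group means, and the values of single libraries are deviations from the controls. Exonic blocks are merged exons of all transcripts. Short single-exon features have at most 300 exonic bases.

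The individually named genes had an adjusted p under 0.05, an average of at least 2 log2 CPM and no overlap between the groups (17 higher and 36 lower qualified), and the 2 largest changes in each direction were taken. Gene lists and cell type markers could not be used for lack of gene names. The members, lists, classes and tests were chosen with earlier results of these data known. In simulated data with 200 changed genes, the edgeR fit recovered 28.6% of 2-fold and 84.9% of 4-fold changes. It also called 7 unchanged genes. Changes near 2-fold were thus mostly missed in that simulation. DESeq2 1.42.0 and limma 3.58.1 (voom with quality weights) were alternatives, beside other scaling, filters, depths, covariates and subsets of dogs. The 12 fresh-frozen libraries were used only for the values named as such.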

Additional observations from a re-analysis of the deposited data

Results flagged for a closer look

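Library measures, individually described genes and chromosomes were checked for a library far from the rest of its group, in 24 groups of libraries; the 11 FFPE tumours were too many for the rule and were not checked. Chance flags about 1 in 20 groups, and 6 were flagged, all among the 10 FFPE controls. Control 60126 had 32584840 total counts, where the next deepest control had 9114673. Control 60462 showed 20499 genes at equal depth, where the next had 15000, and 40.3% of its counts lay in the mitochondrial genome, where the next had 27.5%. Control 61478 had ENSCAFG00000003510 at 10.3 log2 CPM, where the next control was at 9.23, and a deviation of 0.44 on chromosome 13, where the next was at 0.08. Control 50315 had a deviation of 0.25 on chromosome 27, where the next was at 0.08.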

How the results depend on the processing

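The main comparison called 2819 genes, 1342 higher and 1477 lower. Without a filter on low counts 2626 were lower and 34.2% of calls higher, against 47.6% in the main comparison, and 0 chromosomes passed (3 at an unadjusted permutation p under 0.05); chromosomes 13 and 35 shifted by 0.05 and 0.11 and chromosome 21 by -0.047, against 0.16 in the main comparison. With at least 10 counts in at least 10 libraries 4 chromosomes passed. With limma voom 5054 genes were called, 2416 higher and 2638 lower, and with DESeq2 3801. Thinned to the shallowest library, edgeR called 1539 (735 higher, 804 lower) and 7 chromosomes passed. Without grade II tumours 2 chromosomes passed, and chromosome 35 did not (shift 0.40, exact permutation adjusted p = 0.0524). Dogs with FFPE tissue only gave 1250 genes (526 higher, 724 lower) and 0 chromosomes (10 unadjusted). Dogs that also gave fresh-frozen tissue gave 1 gene, higher, and 0 lower (edgeR, 1183 and 1306 unadjusted), and 0 chromosomes (2 unadjusted). With 5 tumours and 3 controls, a chromosome could pass the adjusted exact permutation test only if many were extreme together. That count of 0 therefore decides nothing, and chromosomes 13 and 35 shifted there by 0.45 and 0.39. In these dogs the 4 described genes had log2 fold changes of 4.66, 3.23, -3.14 and -3.74 (edgeR adjusted p = 0.0736 to 0.0901). Age as a covariate, in 14 dogs, gave 103 genes (53 higher, 50 lower), and with an age from a fresh-frozen label added after seeing the data, in 15 dogs, 141 (86 higher, 55 lower). Fewer dogs entered these last fits; what else lowered the counts was not tested. The median SD of tumours minus controls was -0.08 in the main comparison, 0.0030 after thinning and 0.054 without control 50315, an alternative chosen after seeing the data. Leaving out 1 library gave 2139 to 3385 genes, 1047 to 1606 higher, 1092 to 1807 lower, and 3 to 5 chromosomes. No paired analysis was possible because no dog gave FFPE libraries to both groups. Low totals limit detection of low genes, above all in control 50315.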
